A study of Mus musculus with 9 samples.

Results

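Afm, Alb, Afp and Gc are members of the albumin family and lie on mouse chromosome 5, and these 4 of the 22337 genes in the deposited table were chosen by their symbols. Afm had been selected because its level was higher in homozygous mutant testes of this series, and the other members were taken as its family and chromosomal neighbours. RNA was sequenced from the whole testes of 9 mice aged 3 weeks, 3 of each Piwil4 genotype: wild-type (WT-WT), heterozygous for the R264W allele (WT-KI) and homozygous for it (KI-KI). The knock-in allele replaces an arginine of PIWIL4, a nuclear PIWI protein of male germ cells that directs transposon silencing, with tryptophan, and it was made by CRISPR-Cas9 editing of C57BL/6 zygotes. All cells of these animals carry their genotype, and no other allele or agent is given for any group. The first wave of spermatogenesis was in progress in these animals, and the cell composition of each testis varied with its advance. In RNA from whole testes, fewer cells of a type and less RNA per cell cannot be told apart.

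The albumin family encodes abundant secreted proteins of the liver that carry poorly soluble molecules in plasma. Albumin binds fatty acids, hormones and metals, alpha-fetoprotein is its fetal counterpart, afamin binds vitamin E and lipid-modified Wnt proteins, and the product of Gc, the vitamin D-binding protein, carries vitamin D metabolites and scavenges actin. The genes arose by duplication from a common ancestor and are transcribed mainly in hepatocytes, while Afp is silenced in liver after birth.

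In the GENCODE annotation of GRCm38, Alb (ENSMUSG00000029368; chromosome 5, 90460897 to 90476602), Afp (ENSMUSG00000054932; 90490737 to 90508907) and Afm (ENSMUSG00000029369; 90518932 to 90553543) follow one another on the plus strand. The intervals between them measure 14.135 kb from Alb to Afp and 10.025 kb from Afp to Afm. Gc (ENSMUSG00000035540; 89417522 to 89457898) lies on the minus strand, with its start, the higher coordinate, 1.061 Mb from the Afm start. The representative transcripts of Alb, Afp and Afm each have 15 exons, and that of Gc has 13. A further family gene, Albfm1 (ENSMUSG00000070690), starts 42.2 kb beyond the Afm start. Genes annotated on the opposite strand overlap Afp (Gm43449) and the downstream part of Afm (Gm42109). Gm42109 also overlaps Albfm1. Neither of these genes is listed in the deposited table. Since the strand setting of the counting is not given in the sources used here, their reads could not be separated from those of the members.

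The proximal promoters are shown because they carry a sequence that the members share and that the choice of members did not use. Each line gives the 150 bases before the RefSeq transcription start, 5′ to 3′ on the strand of the gene, from the RefSeq promoter set on GRCm38.p6. The windows are chr5:90518799-90518948 (plus strand) for Afm, chr5:90460720-90460869 (plus) for Alb, chr5:90490564-90490713 (plus) for Afp and chr5:89457899-89458048 (minus) for Gc. Capitals mark the letters GTTAATNAT, which were searched on both strands after the sequences had been seen.
Afm: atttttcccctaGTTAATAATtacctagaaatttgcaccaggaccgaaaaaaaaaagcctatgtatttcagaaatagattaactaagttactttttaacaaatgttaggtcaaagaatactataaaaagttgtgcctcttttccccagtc
Alb: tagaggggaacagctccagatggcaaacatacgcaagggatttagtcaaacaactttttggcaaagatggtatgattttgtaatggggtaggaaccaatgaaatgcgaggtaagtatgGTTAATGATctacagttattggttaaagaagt
Afp: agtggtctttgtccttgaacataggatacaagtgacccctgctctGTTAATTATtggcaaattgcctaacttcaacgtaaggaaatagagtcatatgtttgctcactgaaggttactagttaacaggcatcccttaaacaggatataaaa
Gc: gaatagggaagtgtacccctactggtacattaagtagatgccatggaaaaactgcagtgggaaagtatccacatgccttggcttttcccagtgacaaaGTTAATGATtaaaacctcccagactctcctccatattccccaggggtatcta
GTTAATNAT was present in 4 of 4 members, against 263 of 32851 promoter windows of 300 bases (0.801%). It began 32 bases before the RefSeq start in Alb, 52 in Gc, 105 in Afp and 138 in Afm. The RefSeq starts of Alb, Afp and Afm differ from the GENCODE starts given above. Counted from the GENCODE starts, the distances and their order would change. The shorter string GTTAAT, contained in GTTAATNAT, occurred in 7.1% of the windows. TATAAA was found in Afm and Afp, which is 2 of 4 members, and in 13.6% of all windows. These are matches of letters, and no binding was measured in this series. GTTAATNAT was searched after these promoters had been seen. Its presence in 4 of 4 is therefore a description, and the share beside it makes no test.

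Libraries held between 17.96 M and 24.28 M estimated counts per testis, with overlapping ranges in the 3 genotypes, and the replicate libraries of each genotype differed beyond sampling noise. Piwil4 itself had 38, 34 and 33 counts in the WT-WT testes, 46, 20 and 40 in the WT-KI testes and 31, 29 and 18 in the KI-KI testes. These counts do not separate the alleles, and the genotypes are those of the labels. Markers of spermatocytes summed to between 3887 and 4692 CPM and those of Sertoli cells to between 2236 and 3302 CPM, so both main cell types of the labelled tissue were detected in each library. The mean log2 CPM of 10 marker lists, for germ cells, somatic testis cells, blood cells and liver, overlapped between the genotypes in each of the 3 comparisons.

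Afm was the most highly expressed member in every testis. On the FPKM scale, which scales fragments to transcript length and library size and so permits comparison between genes, Afm ran from 0.36 to 2.43 over the 9 testes (median 0.86). Afp ran from 0.14 to 0.35 FPKM (median 0.21), and Afm exceeded it in 9 of 9 testes by between 2.06-fold and 10.6-fold. Alb reached at most 0.08 FPKM, and its highest testis was below the lowest Afp value. Gc was listed at 0 FPKM in all 9 testes. The order was therefore Afm, Afp and Alb, with no overlap between the ranges of these 3 genes. Alb and Gc were both near the limit of detection and were not separated from each other at this depth. Afm stood between the 35.5th and 41.6th percentile of FPKM among all genes in WT-WT testes, between 40.2 and 41.3 in WT-KI testes and between 47.1 and 50.7 in KI-KI testes. Thus even the most expressed member lay near or below the middle of the genes listed.

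**Figure D1:**
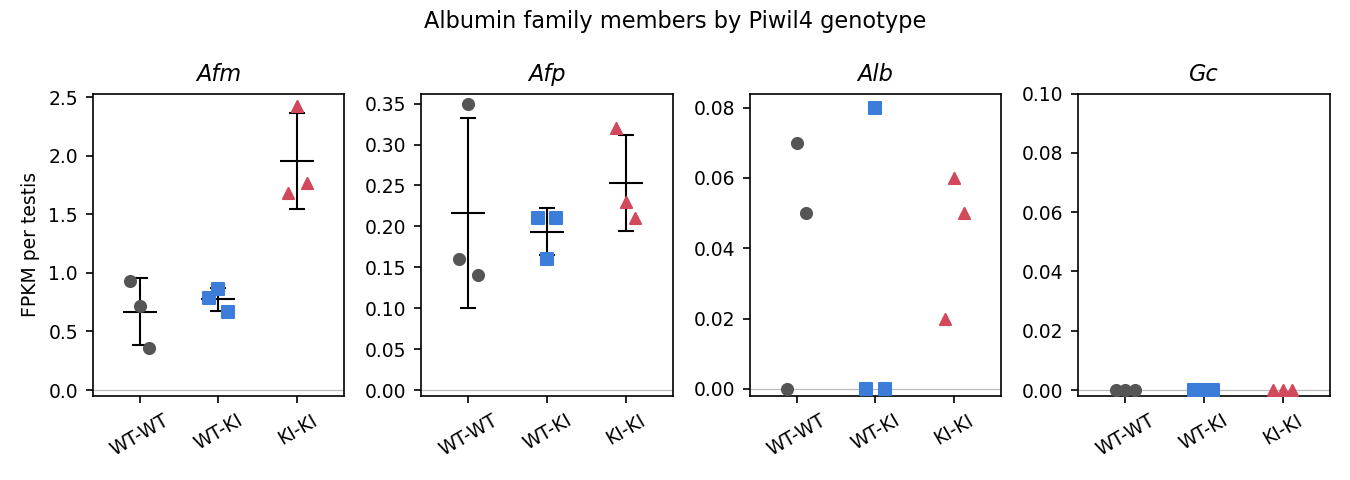
FPKM of Afm, Afp, Alb and Gc in each testis, by Piwil4 genotype, with a separate linear axis for each gene. Symbols are single testes, and for Afm and Afp the horizontal line and bar give the mean and SD of 3 testes; Afm in KI-KI testes lies at 1.68 FPKM or more, and the highest value in the other testes is 0.93.

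Afm was detected in all libraries, with 492 counts in total. The WT-WT testes had 48, 33 and 16 counts, the WT-KI testes 40, 34 and 28, and the KI-KI testes 84, 135 and 74. Scaled to library size (CPM, with TMM factors for library composition), these were 2.23, 1.62 and 0.771 CPM in WT-WT, 1.79, 1.90 and 1.47 CPM in WT-KI, and 3.76, 5.49 and 4.23 CPM in KI-KI testes. Every KI-KI testis was above every other testis, while the WT-WT and WT-KI testes overlapped. The group means were 1.54 ± 0.735 CPM in WT-WT, 1.72 ± 0.223 CPM in WT-KI and 4.49 ± 0.898 CPM in KI-KI testes (SD, n = 3 each).

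The difference of Afm between KI-KI and WT-WT testes was 1.54 on the log2 scale (standard error 0.40), or 2.91-fold. Against WT-KI testes it was 1.38 (standard error 0.23), or 2.61-fold. These values chose the gene and are given as a description without a test. Groups that did not overlap made up 5.69% of the 15543 genes compared between KI-KI and WT-WT testes and 7.15% of the 15463 compared between KI-KI and WT-KI testes, and both comparisons share the KI-KI libraries. Among all genes, 2.11% and 3.39%, respectively, were higher in every KI-KI testis. At an adjusted p under 0.05 in edgeR 0% of genes were called in either comparison, with 196 (1.26%) and 343 (2.22%) at an unadjusted p under 0.05, and DESeq2 called 2 and 6 genes.

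Heterozygous and wild-type testes, a comparison that did not enter the choice, did not differ detectably in Afm. The log2 difference of WT-KI against WT-WT was 0.15 (standard error 0.40, edgeR adjusted p = 1.0, quasi-likelihood with Benjamini-Hochberg adjustment over 15413 genes), and the exact two-sided permutation test gave p = 0.8. With 3 testes against 3 the smallest p of that test is 0.1. The sign of the difference turned to -0.17 without WT-WT replicate 3, the testis with the fewest Afm counts. In this comparison the unadjusted p in edgeR was under 0.05 for 171 genes (1.11%), and 0 genes passed the adjusted threshold in edgeR or in DESeq2. The tests measure the spread between these testes.

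The annotation gives Afm a transcript of 15 exons and 2038 bases (Afm-201) and one of 10 exons and 2465 bases (Afm-202). The Afm length that relates the deposited counts to the deposited FPKM was divided by a calibration ratio for each library, between 1.025 and 1.03. The ratio was the median over 309 to 367 genes with a single annotated transcript. So calibrated, the length was between 2142 and 2216 bases in WT-WT, between 2145 and 2236 in WT-KI and between 2211 and 2227 in KI-KI testes. The groups overlapped, and all values lay between the lengths of the annotated transcripts. Among the transcripts of the members and Albfm1, the longest exact run shared by any pair was between 11 and 15 bases over 10 pairs, short against the reads of 150 bases.

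Afp was detected at a low level in every testis, with 88 counts in all. It had 8, 15 and 6 counts in WT-WT, 10, 6 and 8 in WT-KI and 15, 12 and 8 in KI-KI testes. The mean level was 0.466 ± 0.237 CPM in WT-WT, 0.401 ± 0.0589 CPM in WT-KI and 0.539 ± 0.115 CPM in KI-KI testes (SD, n = 3 each). The highest value, in WT-WT replicate 2, lay above all KI-KI values. Between KI-KI and WT-WT testes the log2 difference of Afp was 0.22 (standard error 0.46, adjusted p = 1.0 in edgeR), with overlapping groups and an exact two-sided permutation p of 0.6. It was 0.71 without WT-WT replicate 2, 0.02 without KI-KI replicate 1 and -0.03 without WT-WT replicate 3.

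Against WT-KI testes, the 3 KI-KI testes were all higher in Afp CPM, where 3.39% of the genes tested were. The margin was narrow, 0.458 CPM in KI-KI replicate 3 against 0.448 CPM in WT-KI replicate 1. These testes had 8 and 10 counts, respectively, so the separation rests on the scaling of the libraries. The log2 difference was 0.42 (standard error 0.41, adjusted p = 0.948 in edgeR), and the exact two-sided permutation p was 0.1, the smallest that 3 against 3 can give. Afp fell under the filter on low counts in this comparison and is not among the genes behind the 3.39%. The log2 value comes from the fit without the filter. It was 0.23 without KI-KI replicate 1. WT-KI and WT-WT testes overlapped in Afp, which fell under the filter here as well. In the fit without the filter the log2 difference was -0.21 (standard error 0.51, adjusted p = 0.999 in edgeR, exact permutation p = 0.9). That sign turned without WT-WT replicate 2, where the difference was 0.31.

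Alb transcripts were almost undetected, although Alb dominates the RNA of the liver. The counts were 0, 3 and 2 in WT-WT, 0, 3 and 0 in WT-KI and 1, 3 and 2 in KI-KI testes, 14 in total, and 3 libraries held none. A count of 0 leaves up to 3 counts possible, which in these libraries is between 0.122 and 0.172 CPM, for counting error alone. All Alb values were at or under that floor, so no fold change is given and no difference between genotypes was detectable. Gc had no count in any of the 9 libraries, with the same floor. Albfm1 was close to it as well, with between 0 and 3 counts per testis.

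Testes of the same genotype differed in how far the first wave had come. The stage was summarised by a score, the average log2 CPM over 20 round spermatid genes. Round spermatids are the first haploid germ cells, and the score ran from 1.26 to 6.0 in WT-WT, from 0.703 to 5.02 in WT-KI and from 2.44 to 5.80 in KI-KI testes. Within WT-WT testes, Afm was lowest at the lowest score (0.771 CPM at 1.26) and highest at the highest score (2.23 CPM at 6.0). In WT-KI testes it was lowest at the lowest score (1.47 CPM at 0.703) and higher in both others. In KI-KI testes the intermediate score of 3.72 had the highest level, 5.49 CPM. The lowest KI-KI value, 3.76 CPM at a score of 2.44, exceeded the WT-WT value at the nearly equal score of 2.53, which was 1.62 CPM.

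With genotype in the fit, the slope of Afm on the score was 0.14 log2 units per unit of score (standard error 0.07, adjusted p = 0.154 in edgeR over 15771 genes), corresponding to 1.67-fold over the observed range of scores. It was 0.07 without WT-WT replicate 3 and 0.08 without WT-WT replicate 1. For Afp the slope was -0.05 (standard error 0.14, adjusted p = 0.852 in edgeR, fit without the filter), and it ran from -0.125 to -0.0028 as single libraries were left out. By comparison, 25.9% of genes had an adjusted p under 0.05 for this slope, and 17.6% rose with the score. The slopes of 0 of the members passed the threshold, and Alb and Gc had too few counts for one. With the score as a covariate, the Afm difference was 1.5 (standard error 0.29) for KI-KI against WT-WT and 1.28 (standard error 0.29) for KI-KI against WT-KI on the log2 scale, again as a description.

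**Figure D2:**
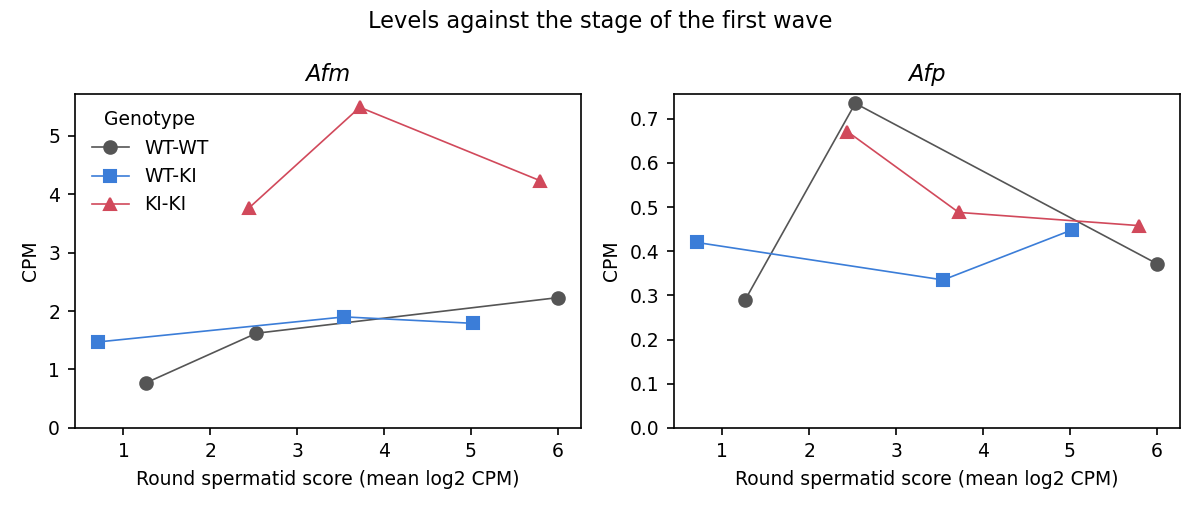
CPM of Afm (left) and Afp (right) in each testis against the round spermatid score, a mean log2 CPM of 20 genes, with a line joining the 3 testes of a genotype. The KI-KI testes lie above all others for Afm at scores from 2.44 to 5.80, while for Afp the WT-WT testis at a score of 2.53 is the highest.

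The genes around the family were examined from a list of 20 neighbours on both sides of Afm. The 7 with enough counts to be tested between KI-KI and WT-WT testes had a median log2 difference of -0.10, against -0.01 for all genes, and 0 of the 7 passed an adjusted p of 0.05 in edgeR, with 1 at an unadjusted p under 0.05. The share of all genes at that unadjusted p in edgeR was 1.26%. Ankrd17, an ankyrin repeat gene on the minus strand with its start at -152.4 kb from the Afm start, was the most abundant neighbour, and its log2 difference was -0.10 (standard error 0.09). Cox18, which encodes a mitochondrial insertase for cytochrome oxidase, differed by -0.12 (standard error 0.17), and Mthfd2l, a mitochondrial folate enzyme, by -0.28 (standard error 0.20). On the far side, 2 of the 7 did not overlap, both higher in KI-KI testes, where 2.11% of all genes did so. One was Pf4, the platelet chemokine, with a log2 difference of 0.12 (standard error 0.17).

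The other was Parm1, an androgen-regulated membrane mucin gene 998.7 kb beyond the Afm start. It had 48, 46 and 60 counts in WT-WT, 62, 61 and 33 in WT-KI and 100, 72 and 71 in KI-KI testes. The KI-KI and WT-WT testes did not overlap in CPM, by a narrow margin of 2.93 against 2.89 CPM. The log2 difference was 0.63 (standard error 0.24, adjusted p = 1.0 in edgeR), and against WT-KI testes, where the groups overlapped, it was 0.53 (standard error 0.30). Against WT-KI testes, 0 of the 7 neighbours were without overlap. The remaining 13 neighbours, among them Rassf6, the nearest gene beyond Albfm1, and the chemokine genes Cxcl1, Cxcl2, Cxcl3 and Cxcl5, had too few counts to be tested.

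**Figure D3:**
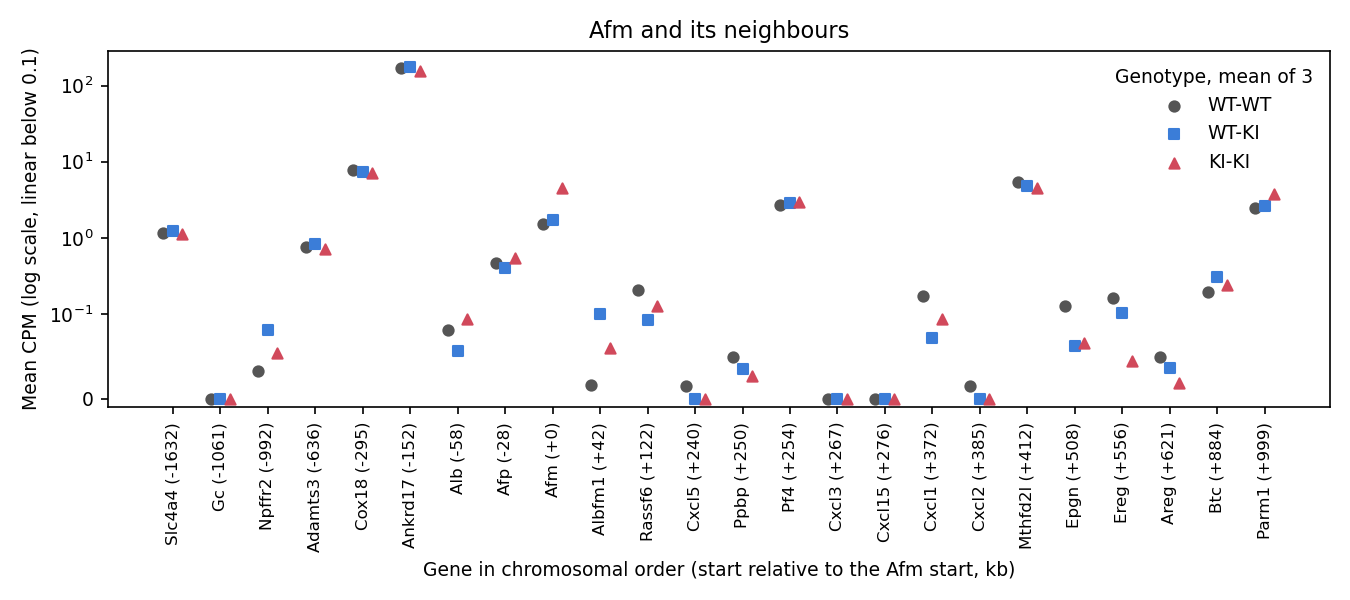
Mean CPM of Afm, the other family members and the listed neighbours in chromosomal order, for each genotype (mean of 3 testes), on a log axis that is linear below 0.1 CPM. Distances of gene starts from the Afm start are given in kb. For genes on the minus strand the higher coordinate is taken as the start. Afm lies at 1.54, 1.72 and 4.49 CPM in WT-WT, WT-KI and KI-KI testes. It was chosen by this difference, so its separation is not ranked against that of its neighbours.

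Among 13 regulators of the family in liver, 9 had enough counts to be tested, and 0 passed an adjusted or an unadjusted p of 0.05 in edgeR in any comparison of genotypes. Their median log2 difference was -0.11 between KI-KI and WT-WT testes. Hnf4a, a master regulator of hepatocytes, had only 1 to 6 counts per testis. Zhx2 and Zbtb20, repressors of Afp in liver after birth, differed by -0.11 (standard error 0.19) and -0.20 (standard error 0.16) between KI-KI and WT-WT testes. Hlf, a circadian PAR-bZIP factor, was lower in every KI-KI testis than in the WT-KI testes, as 3.76% of all genes were, with a log2 difference of -0.35 (standard error 0.18, adjusted p = 0.948 in edgeR).

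Dbp, which binds the albumin promoter D site, fell by 0.13 per unit of the round spermatid score on the log2 scale (standard error 0.03, adjusted p = 0.0104 in edgeR), and its adjusted p was 0.129 without WT-WT replicate 1 and 0.0716 without WT-KI replicate 3. Its relative Tef fell by 0.05 (standard error 0.02, adjusted p = 0.0377 in edgeR). The Tef call was lost without WT-WT replicate 1 or 3, without WT-KI replicate 3 and without any one of the KI-KI testes, with adjusted p in edgeR between 0.0621 and 0.158. The other 7 tested regulators did not pass, so 2 of 9 fell, where 8.38% of all genes did.

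The receptors of the family and the genes that handle its ligands were largely expressed, with 13 of 14 tested. In each comparison of genotypes 0 passed an adjusted p of 0.05 in edgeR and 1 an unadjusted p of 0.05, and the median log2 difference was 0.08 between KI-KI and WT-WT testes. The shares of all genes at that unadjusted p in edgeR were 1.26% (KI-KI against WT-WT), 2.22% (KI-KI against WT-KI) and 1.11% (WT-KI against WT-WT). Fcgrt, the neonatal Fc receptor that rescues albumin from degradation, differed by 0.03 (standard error 0.16). Lrp2, or megalin, the endocytic receptor for the vitamin D-binding protein, differed by 0.13 (standard error 0.34), and Scarb1, the lipoprotein receptor that also takes up vitamin E, by 0.02 (standard error 0.15).

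Cubn, which encodes cubilin, the partner of megalin in albumin uptake, was higher in every WT-WT testis than in the others. Its level was 3.86 ± 0.427 CPM in WT-WT, 2.67 ± 0.460 CPM in WT-KI and 2.85 ± 0.246 CPM in KI-KI testes (SD, n = 3 each). The log2 differences from WT-WT were -0.54 for WT-KI (standard error 0.22, adjusted p = 1.0 in edgeR) and -0.44 for KI-KI (standard error 0.18, adjusted p = 1.0 in edgeR), and both share the WT-WT libraries. Groups without overlap made up 5.32% of genes in the former comparison (2.20% higher and 3.12% lower in WT-KI), and 3.58% of genes were lower in every KI-KI than in every WT-WT testis.

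Cd36, a scavenger receptor for fatty acids, had 165, 60 and 66 counts in WT-WT, 45, 82 and 51 in WT-KI and 146, 166 and 138 in KI-KI testes. The KI-KI testes were all above the WT-KI testes, by 1.19 on the log2 scale (standard error 0.31, adjusted p = 0.948 in edgeR), but WT-WT replicate 1 lay within the KI-KI range. Dab2, an endocytic adaptor of megalin, was also higher in each KI-KI than in each WT-KI testis, by 0.20 (standard error 0.11, adjusted p = 0.948 in edgeR), so that 2 of 13 genes were, against 3.39% of all genes. Ttpa, the transfer protein for vitamin E in the liver cell, was higher in each KI-KI testis than in the WT-WT testes, with a log2 difference of 0.50 (standard error 0.25, adjusted p = 1.0 in edgeR), the only 1 of 13 genes to be so, where 2.11% of all genes were.

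The slope on the stage score was positive past the threshold in 2 of these 13 genes, where 17.6% of all genes rose. For Amn, the amnionless anchor of cubilin, it was 0.70 log2 units per unit (standard error 0.09, adjusted p = 7.6e-05 in edgeR). For Cyp24a1, the vitamin D catabolic enzyme, it was 0.30 (standard error 0.10, adjusted p = 0.0407 in edgeR). The Cyp24a1 call was lost when any one of WT-WT replicates 1, 2 or 3, WT-KI replicate 3 or KI-KI replicates 1, 2 or 3 was left out, with adjusted p in edgeR between 0.062 and 0.172.

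Liver plasma proteins were surveyed with a list of 26 genes to see whether the level of Afm stood beside other hepatocyte transcripts. The list was detected in part. Apoc3 and Itih1 had no counts in any testis, Plg at most 2, Ttr and Ambp at most 3, and Apoa1, Fga and Serpina1a at most 4. Other members were detected throughout, among them Ahsg with 30 to 73 counts, Cps1 with 26 to 52, Rbp4 with 82 to 147 and Itih2 with 95 to 284. The summed CPM of all 26 listed genes ran from 38.96 to 65.32 in WT-WT, from 41.98 to 51.33 in WT-KI and from 51.68 to 61.51 in KI-KI testes. The KI-KI range lay within that of WT-WT and narrowly above that of WT-KI, and whether liver-like transcripts had a part in the level of Afm was not tested. In WT-WT replicate 1, with the highest sum and the highest round spermatid score, Apoh made up 14.01 CPM of the sum. Mean Trf was 14.84 CPM in WT-WT, 13.36 CPM in WT-KI and 15.91 CPM in KI-KI testes. In edgeR, 0 of 11 genes tested passed an adjusted p of 0.05 between KI-KI and WT-WT, with a median log2 difference of -0.06, and 0 of 10 between KI-KI and WT-KI, with a median of 0.22 against 0.01 for all genes. At an unadjusted p under 0.05 the numbers were 0 and 2, the latter being C3 and Itih2. The shares of all genes at that p in edgeR were 1.26% and 2.22%, respectively. Trf, the iron carrier transferrin that Sertoli cells also secrete, differed by 0.10 (standard error 0.16) between KI-KI and WT-WT.

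C3, the central complement component, was higher in each KI-KI testis than in every WT-WT and WT-KI testis, by a margin of 9.21 against 9.08 CPM, where 2.11% of all genes were higher in each KI-KI than in each WT-WT testis and 3.39% than in each WT-KI testis. Its level was 9.55 ± 0.544 CPM in KI-KI, 7.41 ± 2.39 CPM in WT-WT and 6.52 ± 1.68 CPM in WT-KI testes (SD, n = 3 each). The log2 difference was 0.36 from WT-WT (standard error 0.26, adjusted p = 1.0 in edgeR) and 0.55 from WT-KI (standard error 0.21, adjusted p = 0.948 in edgeR). Itih2, a chain of the inter-alpha-trypsin inhibitor family, was higher in each KI-KI testis than in the WT-KI testes, by a margin of 8.63 against 8.60 CPM and by 0.70 on the log2 scale (standard error 0.25, adjusted p = 0.948 in edgeR). In limma on log2(FPKM + 0.1) the differences from WT-KI were 0.38 for Itih2 (standard error 0.42) and 0.91 for C3 (standard error 0.26). Apoh, or beta-2-glycoprotein I, varied with the stage, by 0.67 log2 units per unit of score (standard error 0.07, adjusted p = 1.2e-05 in edgeR), and its counts ran from 15 to 301 over the testes. It was 1 of 11 tested genes of this list to rise, against 17.6% of all genes.

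**Figure D4:**
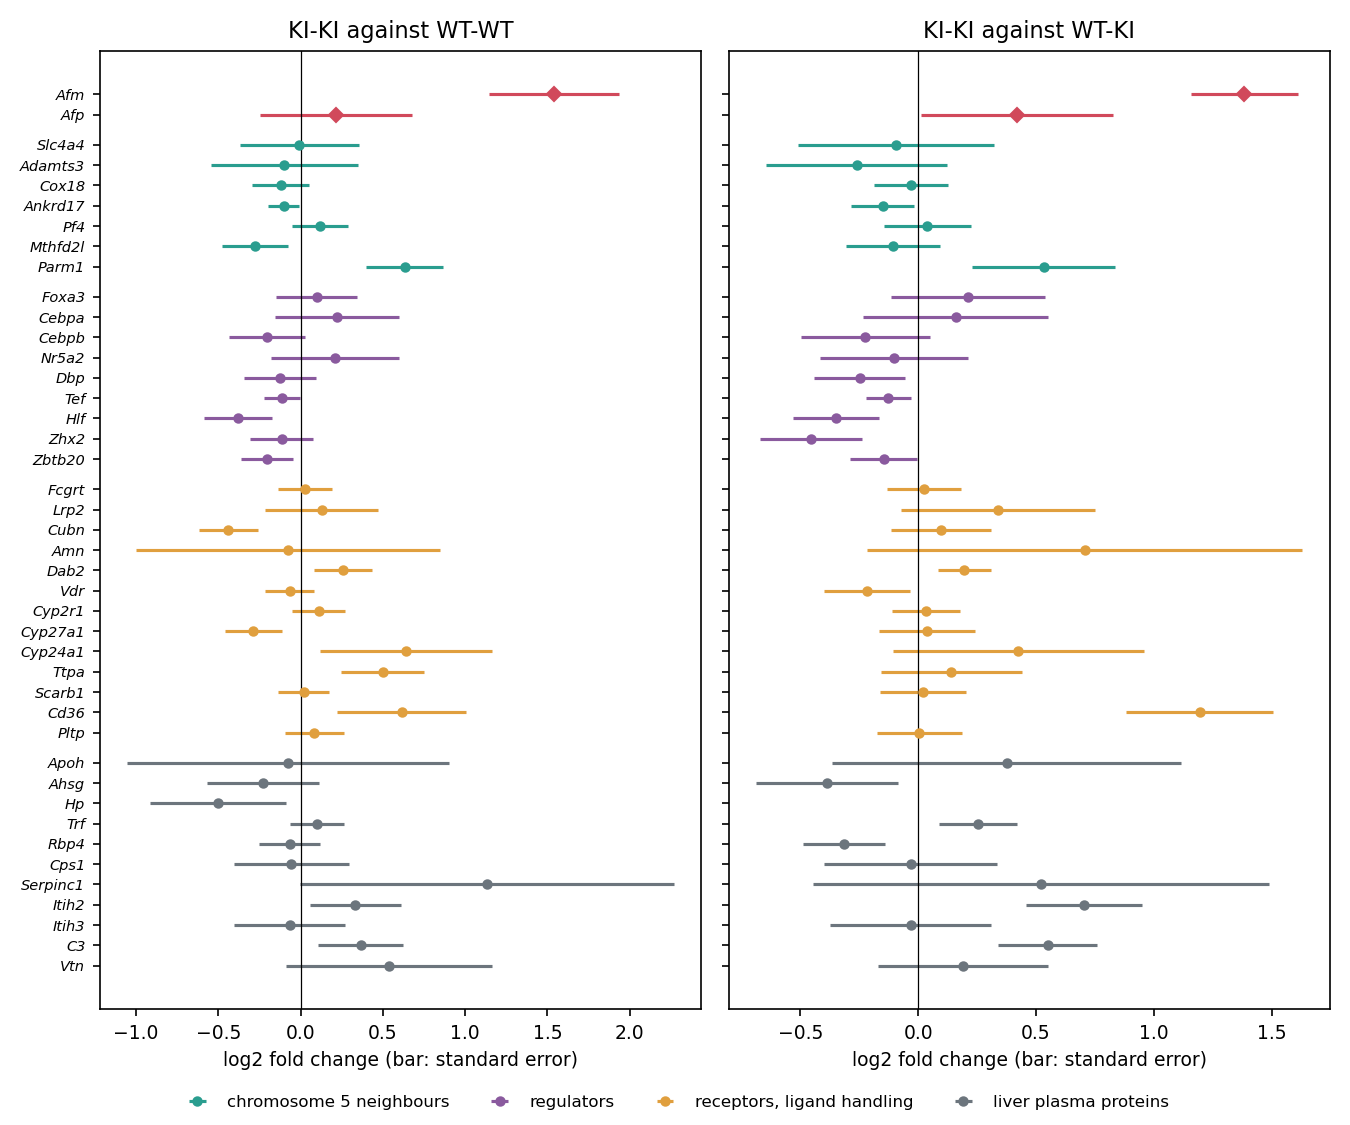
Log2 fold changes with their standard errors for Afm and Afp (diamonds) and the tested genes of the 4 lists (circles, coloured by list), KI-KI against WT-WT (left) and KI-KI against WT-KI (right). Afm, whose value chose it, lies at 1.54 and 1.38, and 0 of the listed genes passed an adjusted p of 0.05 in either comparison.

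Among 15770 other genes, those with the highest Pearson correlation of log2 CPM with Afm over the 9 testes were Fras1 (0.948), A1cf (0.918), A930007A09Rik (0.917), Scp2 (0.913) and Yipf7 (0.908). The points share the libraries and the genotype difference by which Afm was chosen, and the correlations are given as a description. Over the 6 WT-WT and WT-KI testes alone they were 0.812, 0.873, 0.768, 0.857 and 0.907 in the same order. These testes are among the 9 that ranked the genes, and no share over all genes was computed, so the values make no test. Yipf7 passed the filter on low counts only through its KI-KI testes. Its value of 0.907 includes WT-WT replicate 3, with 0 counts and -4.37 log2 CPM, against -1.77 to -1.09 in the other WT-WT and WT-KI testes. No other member had 10 counts in every library, so the likeness was computed for Afm alone.

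Fras1, an extracellular matrix gene of embryonic basement membranes, had 15.0, 13.2 and 11.3 CPM in WT-WT, 15.2, 14.1 and 15.6 CPM in WT-KI and 23.7, 26.5 and 21.3 CPM in KI-KI testes. Like Afm, it was highest in KI-KI replicate 2 and lowest in WT-WT replicate 3, over a range of 1.23 log2 units against 2.76 for Afm. It lies on chromosome 5 as well, 5.86 Mb beyond the Afm start. A1cf, which encodes the RNA-binding cofactor of apolipoprotein B mRNA editing, had 0.964 to 2.23 CPM in WT-WT, 2.0 to 2.87 CPM in WT-KI and 3.15 to 4.65 CPM in KI-KI testes, and is on chromosome 19. Yipf7, a Yip1 domain gene on chromosome 5, had 8, 5 and 0 counts in WT-WT, 6, 6 and 8 in WT-KI and 25, 21 and 28 in KI-KI testes. Its lowest point is thus a library without counts.

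Scp2, which encodes a sterol carrier protein, and A930007A09Rik were also highest in the KI-KI testes and lowest in WT-WT replicate 3, over a much narrower range of 0.328 and 0.329 log2 units. Within the KI-KI testes their order differed from that of Afm. For Scp2 the correlation fell to 0.572 on the FPKM scale.

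**Figure D5:**
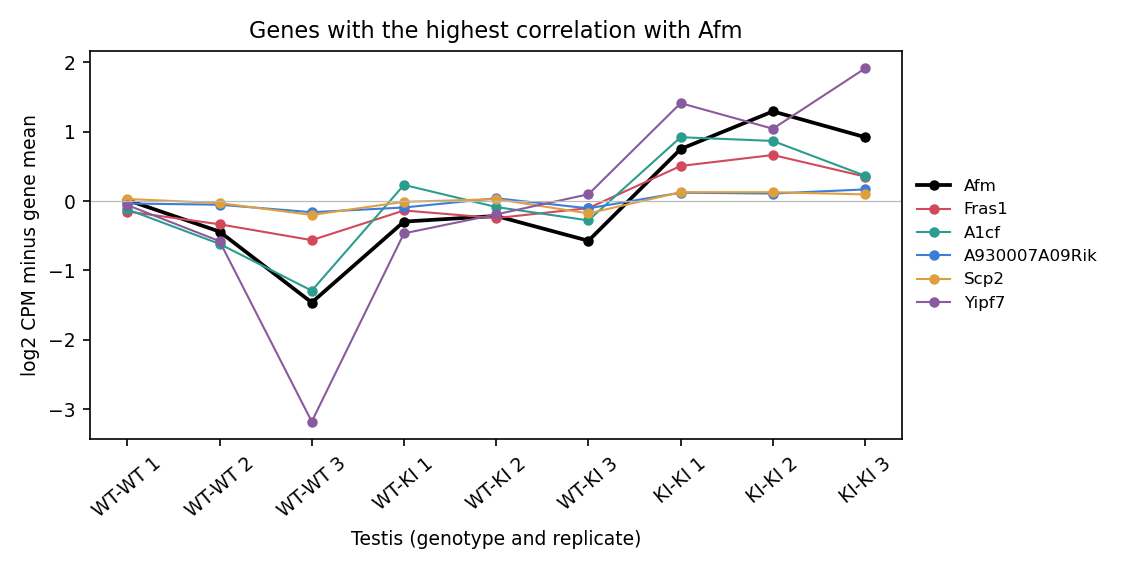
Log2 CPM of Afm and the 5 genes with the highest Pearson correlation with it, each minus its own mean, in the 9 testes. All lines are higher in the KI-KI testes, but the ranges differ from 0.328 log2 units for Scp2 to 5.09 for Yipf7, whose lowest point is a library with 0 counts.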

How the data were processed

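RNA from 9 whole testes was sequenced by mRNA-seq with paired-end reads of 150 bases, and genotypes and replicate numbers were taken from the labels. The authors filtered the reads with fastp (version 0.18.0), assembled them on a reference with StringTie (version 1.3.1) and deposited a table with FPKM values and estimated counts per gene and testis. The submitters' processing notes name the mm39 build. The aligner, the annotation release and the counting tool are not given in the sources used here. Exactly whole numbers made up 89.2% of the estimated counts deposited, zeros included, and 86.5% of those above 0.

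Estimated counts were rounded. Pairs of genotypes, with 6 libraries each, were fitted with edgeR (4.0.16) in R (4.3.3), using filterByExpr, TMM scaling and the two-sided quasi-likelihood test with Benjamini-Hochberg adjustment over all genes tested. Standard errors are the log2 difference divided by the root of F. Slopes on the round spermatid score were fitted over the 9 libraries with genotype as a term. Levels are CPM with TMM factors over 9 libraries, and logarithms used a prior count of 1. The procedure was run on simulated counts with planted changes. The simulated genotype comparison held no shared differences in stage between testes, so it does not check that feature of these data. The labels do not say that replicates come from separate litters or days, so p-values measure only the spread between these samples.

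Alternative settings included limma (3.58.1) with a pseudocount of 0.1 or 1 on FPKM, DESeq2 (1.42.0), DESeq2 scaling within edgeR, other filters, 9 libraries in one fit, the stage score as a covariate, a replicate block and each library left out in turn. Coordinates are from GENCODE on GRCm38, matched by gene identifier, and promoters of 4 of 4 members were matched in the RefSeq set on GRCm38.p6. No coordinate was converted between builds. The members and the gene lists were chosen with earlier results of these data known. Genes named are the members, the genes of the lists and the 5 genes most correlated with Afm. Some regulators are not reported here.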

Additional observations from a re-analysis of the deposited data

How the results depend on the processing

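The Afm difference between KI-KI and the other genotypes stayed positive under all 15 alternatives run for each comparison. Its log2 value ran from 1.23 to 1.91 (KI-KI against WT-WT) and from 1.21 to 1.5 (KI-KI against WT-KI) as single libraries were left out, and fell to 0.83 and 0.73 on log2(FPKM + 1), where the pseudocount is as large as the values. This difference chose the gene, and refits of the same libraries are not independent of that choice. The values are therefore a description without a test. DESeq2 called 2 genes between KI-KI and WT-WT and 6 between KI-KI and WT-KI at an adjusted p under 0.05, where edgeR called 0, and the cause was not tested. As single libraries were left out, the Afp difference ran from -0.0298 to 0.71 against WT-WT, and for WT-KI against WT-WT Afp ran from -0.45 to 0.31 and Afm from -0.17 to 0.52. These reversals (Afp -0.0298 and Afm -0.17 without WT-WT replicate 3, Afp 0.31 without WT-WT replicate 2) were far from the threshold. Alb and Gc had no value under any alternative, and Afp had none with at least 10 counts in every library. Counts of 6 to 15 in most libraries limit what can be said of Afp.

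With the mean log2 CPM of spermatocyte genes as the score, which ran only from 6.60 to 6.76, the slope calls of Dbp, Tef, Amn, Cyp24a1 and Apoh were lost. Over all alternatives Tef lost its call in 11 of 18 and Cyp24a1 in 12 of 17.

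Replicate numbers were shared between genotypes, but the numbers were not taken to pair the testes: 2 of 9 same-numbered pairs had a correlation of deviations over 0.1, replicates 1 and 3 of WT-KI against WT-WT (0.713 and 0.784), and the lowest was -0.734. With the replicate number as a block, the log2 difference of Afm was 1.63 (KI-KI against WT-WT) and 1.37 (KI-KI against WT-KI), and 0 genes had an adjusted p under 0.05 in edgeR in each comparison. At an unadjusted p under 0.05 the block gave 52, 131 and 181 genes in place of 196, 343 and 171. The stage score as a covariate gave 413, 505 and 592 genes in edgeR. As single libraries were left out, the number ran from 86 to 1164 for KI-KI against WT-WT. It ran from 163 to 1145 for KI-KI against WT-KI and from 83 to 244 for WT-KI against WT-WT. The cause of this spread was not tested.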
